A study of Homo sapiens with 7 samples.

Results

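The 50 genes described here are cell cycle and proliferation genes, chosen by name: cyclins, cyclin-dependent kinases (CDKs) and their inhibitors, the RB and E2F families, and genes of DNA replication, mitosis and cytokinesis. All 50 were found once each among the 60234 genes of the deposited expression table. They were measured by poly-A RNA sequencing in cardiomyocytes differentiated from WTC-11, an established human induced pluripotent stem cell line, with a small molecule protocol and 35 days of maturation. An antisense oligonucleotide (ASO), a synthetic strand that base-pairs with a target transcript, was then added passively at 2 uM for 96 h. It had a scrambled sequence in 3 libraries and was directed at MYH7B, a myosin heavy chain gene, in 4. No genetic change of the line is given for either group. All libraries come from 1 cell line, and no label says that they come from separate differentiations, so p-values measure the spread between these libraries, which may be technical.

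The column of MYH7B ASO replicate 1 is out of row register in the deposited table. The comparisons therefore use scrambled ASO replicates 1 to 3 and MYH7B ASO replicates 2 to 4. Replicate 1, put back in order with the GENCODE 29 gene list, is given beside them for some genes. Values are TPM, an abundance scaled to transcript length and to the same total in each library, which keeps no record of depth. Mitochondrially encoded genes took 17.2% of that total in MYH7B ASO replicate 1 and 27.4% to 33.6% in the other libraries. TPM of other genes in replicate 1 are therefore not on the same footing, and this was not corrected for. Differences are MYH7B ASO minus scrambled ASO on the log2(TPM + 1) scale from limma, a linear model fitted across all genes. On that scale the change of a low gene comes out smaller than it is. A gene is referred to as called at a Benjamini-Hochberg adjusted p under 0.05 over all 15988 genes tested.

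Cells that divide pass through G1, in which D-type cyclins with CDK4 and CDK6 phosphorylate the RB proteins and release E2F factors. E2F factors switch on the genes of S phase, in which DNA opened by the MCM helicase is copied. A later wave of genes under FOXM1 and the MuvB complex drives G2, mitosis and cytokinesis. CDK inhibitors hold the kinases back. Heart muscle cells largely leave the cycle after birth and retain little capacity to divide, and stem cell derived cardiomyocytes slow their division as they mature.

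MYH7B, the ASO target, was called lower and was at 23.0, 36.5 and 25.1 TPM with the scrambled ASO and at 9.30, 5.65 and 6.31 TPM in MYH7B ASO replicates 2 to 4. Cardiomyocyte markers, 12 genes of which 1 was called lower, summed to 11702 to 12861 TPM with the scrambled ASO and to 9387 to 11688 TPM in MYH7B ASO replicates 2 to 4, with 8524 TPM in replicate 1. All 12 had a mean of at least 1 TPM. Of 7 pluripotency markers, 4 (L1TD1, LIN28A, NANOG and ZFP42) had a mean below 1 TPM, and the list summed to 4.95 to 9.02 TPM. Fibroblast markers, 10 genes of which 3 were called lower, summed to 3509 to 6275 TPM with the scrambled ASO and to 1487 to 2257 TPM in MYH7B ASO replicates 2 to 4. Smooth muscle markers, 7 genes of which 1 was called lower, summed to 1070 to 1519 and to 613 to 839 TPM. In MYH7B ASO replicate 1 the fibroblast and smooth muscle sums were 4463 and 1322 TPM. These lay inside the scrambled ranges, without allowance for the lower mitochondrial share of that library. Epicardial markers, 6 genes of which none was called, summed to 1294 to 1698 and to 1484 to 1835 TPM. Each gene of these 3 lists had a mean of at least 1 TPM. Of 5 immune markers, 4 had a mean below 1 TPM, and only PTPRC was at 0 in the 6 libraries. The immune list summed to 2.51 to 6.48 TPM with the scrambled ASO and to 1.44 to 3.59 TPM in MYH7B ASO replicates 2 to 4.

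Transcripts of the cell cycle genes were present in both groups, and none of them was called. Together the 50 genes made up 1023 to 1105 TPM with the scrambled ASO and 915 to 1086 TPM with the MYH7B ASO, so the summed levels overlapped. Of the 50, 48 had a mean of at least 1 TPM and were tested, and CCNE2 and E2F2 were below that level. None of the 48 was called by limma, where 1.66% of all genes tested were called (1.48% lower and 0.181% higher). That is 236 lower and 29 higher genes, and quantile normalization gave 202 and 55. At an unadjusted p under 0.05 there were 5 of the 48, 1 higher and 4 lower, a share of 10.4% beside 15.2% of all genes tested (4.67% higher and 10.6% lower). The lowest limma adjusted p of a member was 0.177. In the authors' deposited table (the submitters' processing notes name DESeq2), 2 of the 49 members with an adjusted p-value were under 0.05, a share of 4.08% beside 8.71% of all genes (3.02% higher and 5.69% lower). These were CDKN1C, higher, and BUB1B, lower. With MYH7B ASO replicate 1 added, again none of the members was called by limma, beside 1.07% of all genes, and 3 were at an unadjusted p under 0.05, beside 13.5% of all genes.

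The median difference of the 48 members was -0.17, beside -0.04 for all genes tested. Of the members, 32 were on the lower side of 0 and 16 on the higher side, a lower share of 66.7% beside 54.8% of all genes tested. The 95% interval of the difference lay inside -1 to 1, that is within a doubling or a halving on this scale, for 42 of the 48 members (87.5%) and for 63.0% of all genes tested. The interval reached past a halving for BUB1B, CCNE1, CDKN2C, MCM4, MCM5 and CDC25C. The lower ends were -1.81, -1.19, -1.18, -1.05, -1.27 and -1.13 in that order. For these 6 genes the data leave room for a difference of that size. The limits are on the log2(TPM + 1) scale, so a halving in TPM is not excluded for every other member. RBL1 and RBL2, at 1.45 and 17.5 TPM with the scrambled ASO, had lower ends of -0.99 and -1.0. On the higher side, CDKN1C and RRM2 had upper ends of 1.0 and 0.95, close to a doubling on this scale. In bulk samples, fewer cells of a type and less RNA per cell cannot be told apart. The cardiomyocyte, fibroblast and smooth muscle marker sums were each lower in MYH7B ASO replicates 2 to 4 than with the scrambled ASO, without overlap. Of the cardiomyocyte sums, the lowest scrambled one (11702 TPM) lay just above the highest MYH7B ASO one (11688 TPM). Mitochondrially encoded genes, which share the TPM total, took 33.0%, 33.2% and 27.4% in scrambled ASO replicates 1 to 3. They took 32.6%, 31.2% and 33.6% in MYH7B ASO replicates 2 to 4. Their part in the marker sums, and the part of the sums in the members' differences, were not tested.

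**Figure D1:**
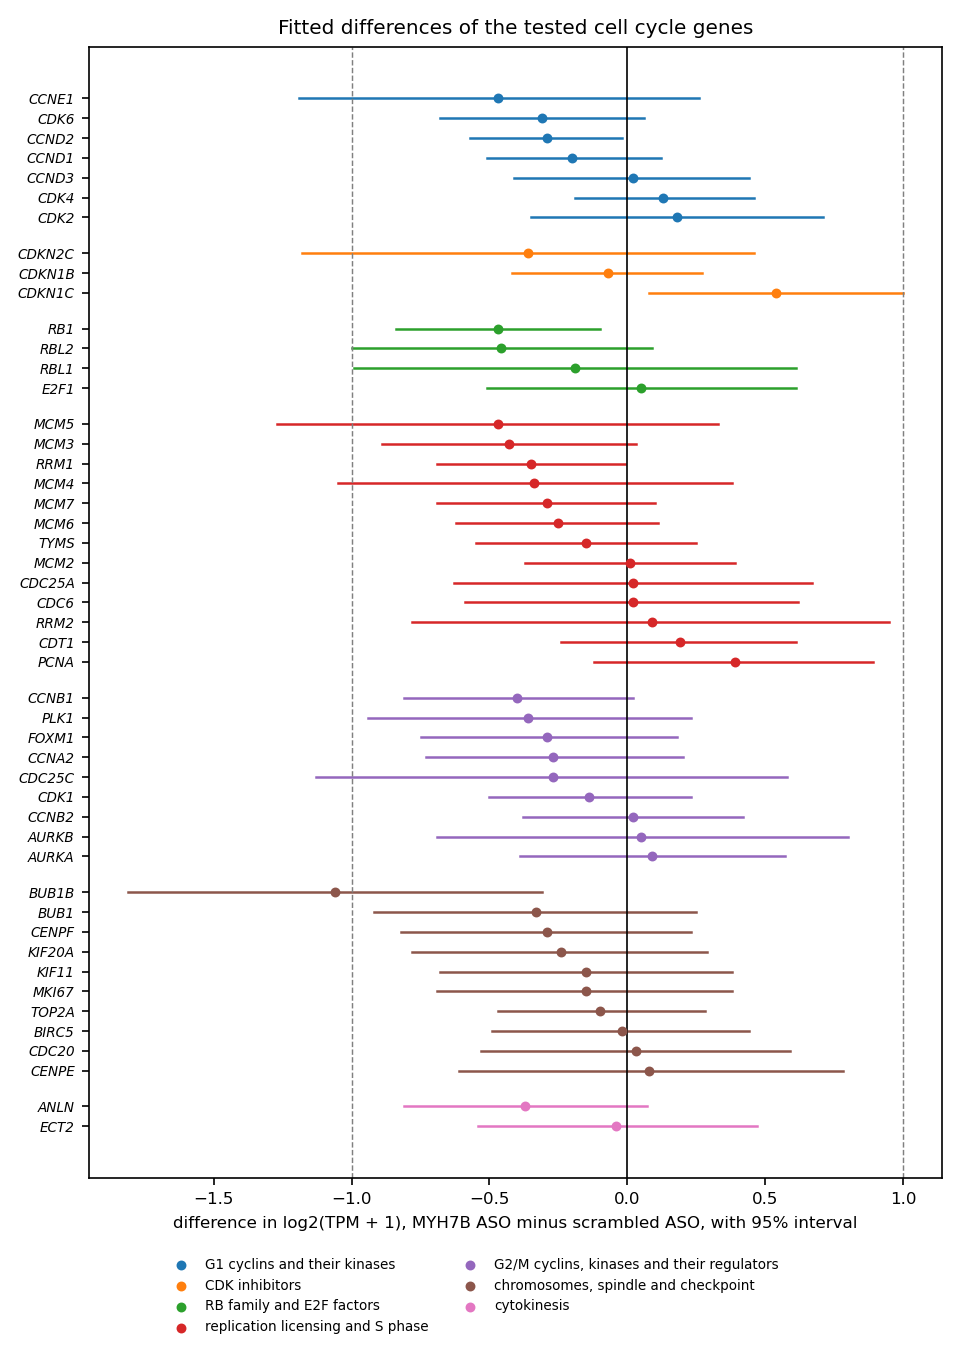
Fitted difference in log2(TPM + 1), MYH7B ASO replicates 2 to 4 minus scrambled ASO, for the 48 tested members grouped by role, with points for the limma estimate and lines for the 95% interval. Dashed lines mark -1 and 1, and 42 of the 48 intervals lie between them, and the point of BUB1B is farthest to the left and that of CDKN1C farthest to the right.

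CCND1 and CCND2, both D-type cyclins, had the highest mean TPM of the 50 genes with the scrambled ASO, and CDKN1C and CDK4 followed. CCND1, the cyclin that links growth signals to G1, was at 114, 97.6 and 117 TPM with the scrambled ASO and at 91.5, 106 and 89.2 TPM in MYH7B ASO replicates 2 to 4. These groups overlapped, with a difference of -0.20 (SE 0.14, limma adjusted p = 0.558). MYH7B ASO replicate 1 held 190.1 TPM of CCND1, without allowance for its lower mitochondrial share, and with that library the difference was 0.05. CCND2 was at 79.7, 78.1 and 87.0 TPM and at 65.4, 65.8 and 67.6 TPM, so that all 3 MYH7B ASO libraries lay below all 3 scrambled ones. Its means were 81.6 ± 4.77 TPM (SD, n = 3) and 66.3 ± 1.16 TPM (SD, n = 3), and the difference of -0.29 (SE 0.12) had an unadjusted limma p of 0.0411 and did not pass over all genes (adjusted p = 0.302). CCND3 was at 29.7 ± 6.56 TPM and 29.7 ± 2.51 TPM (SD, n = 3 each), a difference of 0.02 with an interval from -0.41 to 0.44.

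CDK4, a kinase partner of the D cyclins, was at 73.0, 62.6 and 77.9 TPM and at 76.9, 85.3 and 71.8 TPM. The difference was 0.13 (interval -0.19 to 0.46), and the groups overlapped. For CDK4, MYH7B ASO replicate 1 held 135.6 TPM, again without that allowance for its mitochondrial share, and with that library the difference was 0.33. CDK6, its close relative, was at 28.2, 24.3 and 22.2 TPM and at 20.8, 21.2 and 17.5 TPM. The groups of CDK6 did not overlap, although scrambled ASO replicate 3 at 22.2 TPM was close to MYH7B ASO replicate 3 at 21.2 TPM. The CDK6 difference of -0.31 (SE 0.16) did not pass (limma adjusted p = 0.413). CDK4 overlaps TSPAN31 and MARCH9 in the annotation, and 18 of the 50 members overlap another coding gene. Whether counting used strand is not given in the sources used here, so part of the reads of such genes may belong to the neighbour.

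The E-type cyclins, which act with CDK2 at the entry into S phase, were low. CCNE1 was at 3.98 ± 1.68 TPM and 2.48 ± 0.54 TPM (SD, n = 3 each), with a difference of -0.47. CCNE2 ranged from 0 to 0.90 TPM and was not tested. CDK2 was at 13.6 ± 2.07 TPM and 15.8 ± 4.71 TPM (SD, n = 3 each), a difference of 0.18 within the spread (limma adjusted p = 0.760).

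Among the 3 CDK inhibitors, CDKN1C (p57, chr11:2883213-2885773 in GENCODE 29 on GRCh38) stood highest. CDKN1C is an imprinted gene whose protein inhibits G1 kinases and is typical of cells that leave the cycle. It was at 53.1, 69.3 and 94.2 TPM with the scrambled ASO and at 106, 104 and 97.9 TPM in MYH7B ASO replicates 2 to 4. The groups did not overlap, although the highest scrambled library lay just under the lowest MYH7B ASO library. The means were 72.2 ± 20.7 TPM and 102.5 ± 4.07 TPM (SD, n = 3 each). The difference of 0.54 had a standard error of 0.20, an unadjusted limma p of 0.0272 and an adjusted p of 0.255. CDKN1C passed in the authors' deposited table (log2 fold change 0.52, adjusted p-value 0.0172). MYH7B ASO replicate 1 was higher still, at 159 TPM, without allowance for the lower mitochondrial share of that library. With that library added the limma adjusted p was 0.248. No other member had groups of 3 that did not overlap on the higher side, and 7.11% of all genes tested did so. With replicate 1 added the groups of CDKN1C still did not overlap, beside 4.70% of all genes.

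CDKN1B (p27), another inhibitor of the G1 kinases, was at 37.0, 40.4 and 47.1 TPM and at 39.1, 42.8 and 36.0 TPM. Its groups overlapped, with a difference of -0.07 and an interval from -0.42 to 0.27. CDKN2C (p18), an inhibitor of CDK4 and CDK6, was at 5.69, 2.28 and 1.83 TPM and at 2.03, 1.88 and 2.37 TPM. Its difference of -0.36 had a standard error of 0.36, and scrambled ASO replicate 1 alone lay above the other 5 libraries. Without that library the difference was 0.02.

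Of the pocket proteins, which bind E2F factors and keep their targets silent, RB1 was at 17.0, 15.6 and 19.3 TPM and at 13.6, 12.04 and 11.1 TPM. The groups did not overlap. The means were 17.3 ± 1.83 TPM and 12.2 ± 1.26 TPM (SD, n = 3 each), and the difference of -0.47 (SE 0.16) had an unadjusted limma p of 0.0198 and an adjusted p of 0.222. RB1 did not pass in the authors' deposited table either (log2 fold change -0.39, adjusted p-value 0.114). In MYH7B ASO replicate 1 RB1 was at 18.6 TPM, inside the scrambled range, without allowance for the lower mitochondrial share of that library. RBL2 (p130), the pocket protein of resting cells, was at 17.5 ± 5.48 TPM and 12.2 ± 2.05 TPM (SD, n = 3 each), a difference of -0.46 with overlapping groups. RBL1 (p107) was at 1.45 ± 0.16 TPM and 1.198 ± 0.56 TPM (SD, n = 3 each). RB1 overlaps LPAR6 and RCBTB2 in the annotation, so its level carries that uncertainty.

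E2F1, an activating E2F factor, was at 4.03 ± 0.88 TPM and 4.22 ± 0.99 TPM (SD, n = 3 each), a difference of 0.05. E2F2 was at 0.92 ± 0.31 TPM and 0.84 ± 0.04 TPM (SD, n = 3 each) and was not tested.

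**Figure D2:**
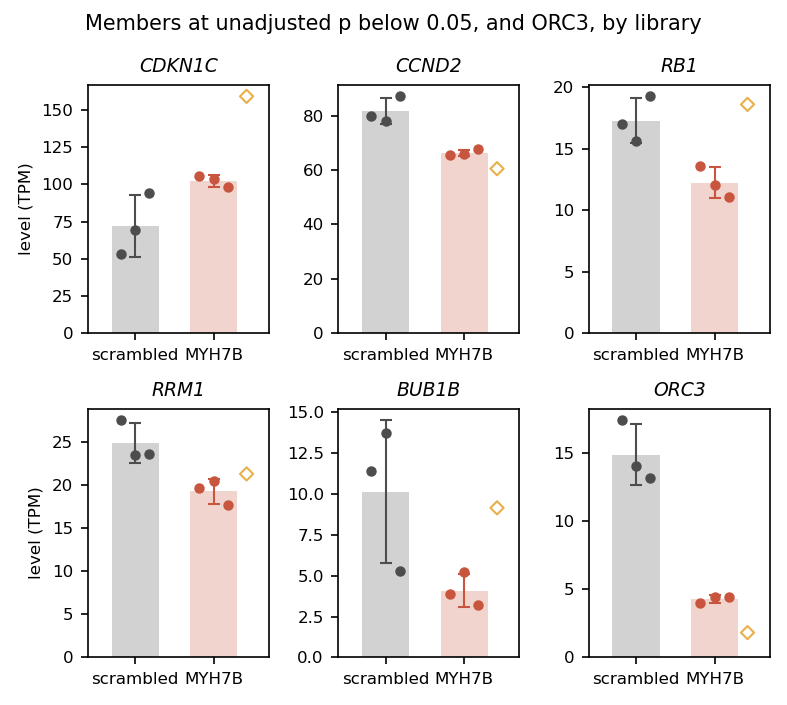
Level in TPM of the 5 members with an unadjusted limma p under 0.05 and of ORC3, a replication gene from the other cell cycle lists, in each library. Bars are means with SD over 3 libraries, circles are libraries and the open diamond is MYH7B ASO replicate 1 after reordering, which lies among the scrambled ASO values for RB1 and BUB1B and below all others for ORC3.

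The 13 genes of replication licensing and S phase had a median difference of -0.15, with 7 lower, 6 higher and none called. RRM1, the large subunit of the enzyme that makes deoxyribonucleotides, was at 27.5, 23.5 and 23.6 TPM and at 19.6, 20.4 and 17.7 TPM, with groups that did not overlap. Its difference of -0.35 (SE 0.15) had an unadjusted limma p of 0.0449 and an adjusted p of 0.314. RRM2, the small subunit that cells make in S phase, was at 7.72, 17.3 and 21.4 TPM and at 14.2, 22.8 and 10.8 TPM. Its groups overlapped widely, and its interval ran from -0.78 to 0.95.

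The MCM2 to MCM7 genes code for the 6 subunits of 1 helicase ring, yet their levels were not equal. MCM4 and MCM7 had the highest scrambled ASO means, 34.4 ± 12.97 and 28.4 ± 2.34 TPM (SD, n = 3 each). MCM2, MCM5 and MCM6 had 10.1 ± 0.62, 10.1 ± 5.24 and 10.6 ± 0.63 TPM (SD, n = 3 each), which do not differ beyond their spread. MCM2 had the difference nearest to 0 of the 6, at 0.01 with an interval from -0.37 to 0.39. For MCM2, MYH7B ASO replicate 1 held 25.6 TPM, without allowance for its lower mitochondrial share, and with that library the difference was 0.32. Without replicate 1, the other 5 subunits had differences from -0.47 for MCM5 to -0.25 for MCM6. The groups did not overlap for MCM6, and they overlapped for MCM2, MCM3, MCM4, MCM5 and MCM7.

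PCNA, the sliding clamp of DNA polymerases, was at 30.6, 16.3 and 25.0 TPM and at 31.2, 31.2 and 29.7 TPM. Its difference of 0.39 (SE 0.22) was the largest of this group on the higher side and did not pass (limma adjusted p = 0.456). TYMS, which makes thymidylate, was at 35.7 ± 5.74 and 31.9 ± 4.12 TPM (SD, n = 3 each). The licensing factors CDC6 and CDT1 were at 2.79 ± 0.67 and 6.65 ± 0.14 TPM with the scrambled ASO and at 2.83 ± 0.61 and 7.79 ± 1.31 TPM with the MYH7B ASO (SD, n = 3 each). CDC25A, a phosphatase that activates CDK2, was at 3.53 ± 1.45 and 3.47 ± 0.60 TPM (SD, n = 3 each).

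Of 4 usual markers of dividing cells, the groups overlapped for MKI67, TOP2A and CDK1 and did not for CCNB1. MKI67, which codes for the Ki-67 antigen of cycling cells, was at 5.58, 9.42 and 8.26 TPM and at 5.38, 7.85 and 7.15 TPM. Its difference was -0.15 (SE 0.23, limma adjusted p = 0.799), with an interval from -0.69 to 0.38. TOP2A, the topoisomerase that untangles chromosomes before division, was at 21.8, 26.9 and 22.8 TPM and at 19.2, 24.4 and 23.2 TPM. Its difference was -0.10, with an interval from -0.47 to 0.28.

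CDK1, the kinase that starts mitosis, was at 30.3, 26.4 and 24.7 TPM and at 21.3, 26.7 and 25.9 TPM. Its difference was -0.14 (interval -0.50 to 0.23), and the groups overlapped. For CDK1, MYH7B ASO replicate 1 held 13.5 TPM, and with that library the difference was -0.34. CCNB1, the cyclin partner of CDK1, was at 34.8, 38.4 and 34.6 TPM and at 21.2, 32.8 and 28.45 TPM. Each MYH7B ASO library was lower than each scrambled one. The difference of -0.40 (SE 0.18) did not pass (limma adjusted p = 0.352). CCNB2, a second cyclin B, was at 19.1 ± 2.97 and 19.3 ± 2.52 TPM (SD, n = 3 each), a difference of 0.02 with an interval from -0.38 to 0.42.

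**Figure D3:**
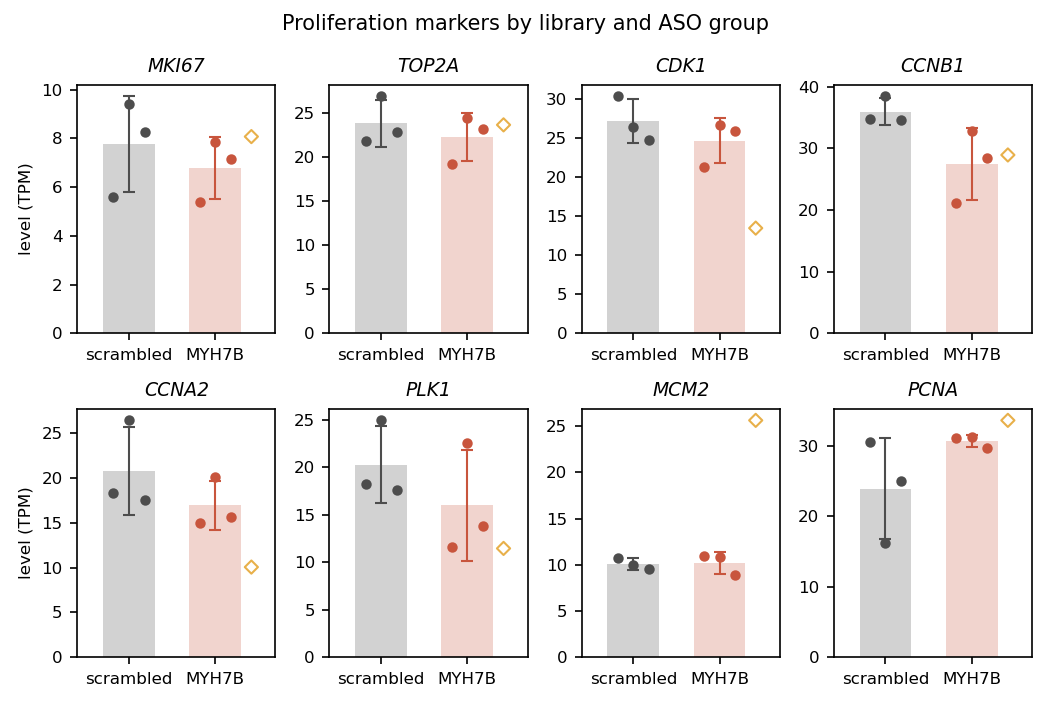
Level in TPM of 8 proliferation genes in each library, with bars for the mean and SD of 3 libraries, circles for libraries and an open diamond for MYH7B ASO replicate 1 after reordering. The circles of the 2 groups overlap for MKI67, TOP2A, CDK1, CCNA2, PLK1, MCM2 and PCNA, and those of CCNB1 do not.

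BUB1B (BubR1, chr15:40161023-40221136 in GENCODE 29 on GRCh38), a kinase-like protein of the spindle checkpoint, had the largest difference of any member. It was at 11.4, 13.8 and 5.29 TPM with the scrambled ASO and at 3.85, 5.22 and 3.21 TPM in MYH7B ASO replicates 2 to 4. The groups did not overlap, but scrambled ASO replicate 3 at 5.29 TPM was close to the highest MYH7B ASO library at 5.22 TPM. The means were 10.1 ± 4.37 TPM and 4.09 ± 1.03 TPM (SD, n = 3 each). The difference of -1.06 had a standard error of 0.33, an unadjusted limma p of 0.0115 and an adjusted p of 0.177. BUB1B passed in the authors' deposited table (log2 fold change -0.81, adjusted p-value 0.0140). MYH7B ASO replicate 1 held 9.16 TPM, within the scrambled range, without allowance for the lower mitochondrial share of that library. With that library the difference was -0.81 (limma adjusted p = 0.390). Without scrambled ASO replicate 3 the limma adjusted p was 0.0558. The readthrough gene BUB1B-PAK6, which overlaps BUB1B, was listed at 0 in the 6 libraries.

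BUB1, the checkpoint kinase related to BUB1B, was at 21.8, 18.5 and 10.4 TPM and at 12.4, 13.7 and 11.8 TPM. Scrambled ASO replicate 3 was the lowest of the 6 libraries for BUB1, so the groups overlapped, and the difference of -0.33 did not pass (limma adjusted p = 0.588). CDC20, the coactivator that starts anaphase and is the checkpoint's target, was at 24.1, 25.6 and 35.9 TPM and at 20.1, 33.2 and 35.1 TPM, a difference of 0.03. The other spindle and chromosome genes, BIRC5, CENPE, CENPF, KIF11 and KIF20A, had differences from -0.29 to 0.08, with limma adjusted p-values from 0.592 to 0.972.

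The mitotic kinases AURKA, AURKB and PLK1, the phosphatase CDC25C, the transcription factor FOXM1 and cyclin CCNA2 had differences from -0.36 to 0.09. None of these 6 passed, and their groups overlapped. Of the cytokinesis genes, ANLN, which anchors the contractile ring, was at 17.7, 24.2 and 18.3 TPM and at 16.3, 17.2 and 12.4 TPM. Its groups did not overlap and its difference was -0.37 (SE 0.19, limma adjusted p = 0.409). ECT2, which activates the ring through RhoA, differed by -0.04.

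Across all members, the groups of 3 did not overlap on the lower side for 8 genes of 48 (CCND2, CDK6, RB1, MCM6, RRM1, CCNB1, BUB1B and ANLN), beside 14.1% of all genes tested. With MYH7B ASO replicate 1 added, 5 of these 8 still did not overlap: CCND2, MCM6, RRM1, CCNB1 and ANLN. Of all genes in that fit 10.2% had groups that did not overlap on the lower side. CDK6, RB1 and BUB1B then overlapped, without allowance for the lower mitochondrial share of replicate 1.

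The genes of G2, mitosis and cytokinesis varied together between libraries of the same group. Of these 21 members, 14 were highest in replicate 2 among the 3 scrambled ASO libraries, beside 27.3% of all genes tested. Among MYH7B ASO replicates 2 to 4, 16 of the 21 were highest in replicate 3, beside 37.4% of all genes tested. Summed over the 21 genes, scrambled ASO replicates 1 to 3 held 328, 382 and 318 TPM, and MYH7B ASO replicates 2 to 4 held 257, 346 and 292 TPM. MYH7B ASO replicate 3 thus lay above 2 of the 3 scrambled libraries for these genes. Of the 13 S-phase members, 9 were highest in scrambled ASO replicate 1 and 10 in MYH7B ASO replicate 3, so the top library differed from that of the mitotic genes among the scrambled libraries and was the same among the MYH7B ASO libraries. Members share a library's composition, so these counts are a description of the libraries and not of the ASO.

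**Figure D4:**
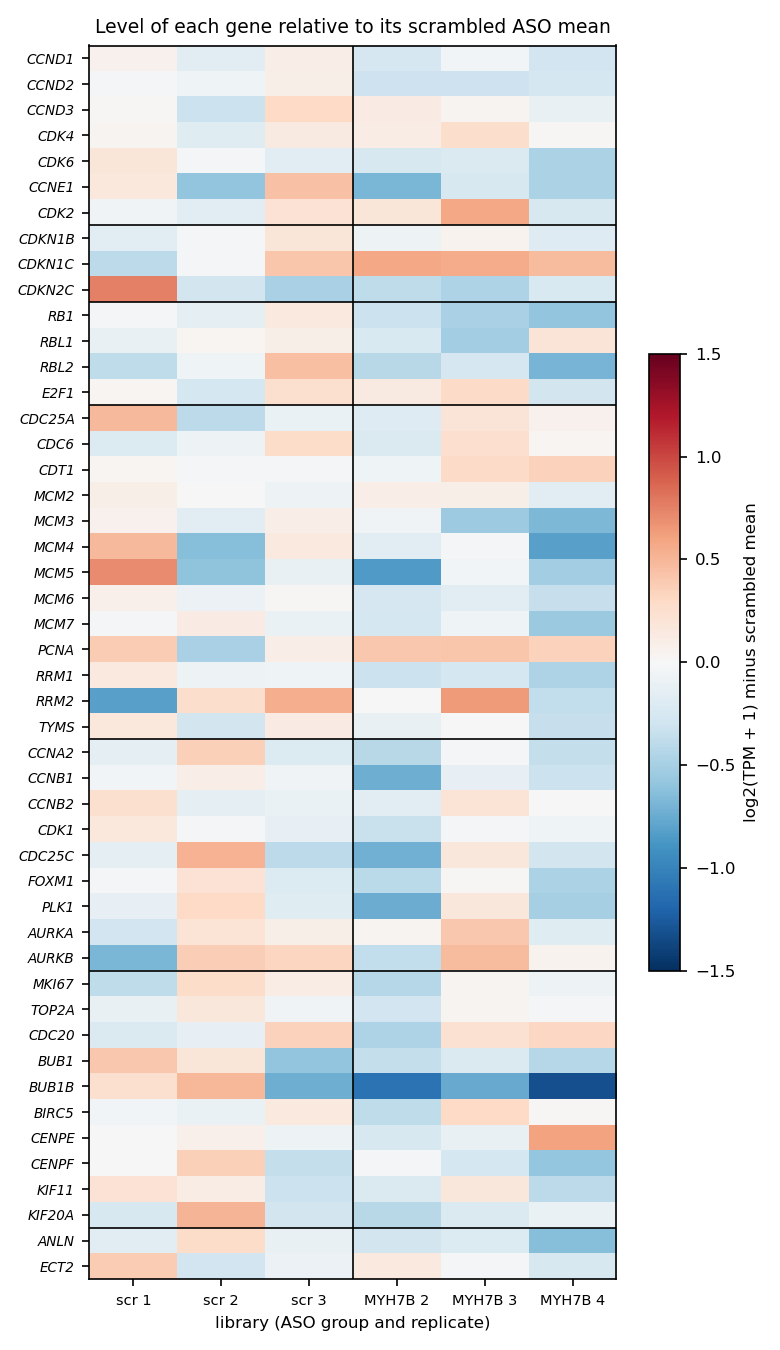
Level of each tested member in each library as log2(TPM + 1) minus the mean of the 3 scrambled ASO libraries, with blue for lower and red for higher values and lines between the roles. For the G2, mitosis and cytokinesis genes, scrambled ASO replicate 2 had a median of 0.20 and MYH7B ASO replicate 2 the lowest median of the 6 libraries, -0.37.

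The promoters of the members were searched for short motifs known from genes of each phase. RefSeq promoter windows on GRCh38.p14, from 250 bases before to 50 after the gene start, were found for 40 of the 50 members. The word of the cell cycle genes homology region, TTTGAA or its variant TTCGAA on either strand, to which the MuvB complex is known to bind, was present for 13 of 18 G2, mitosis and cytokinesis members (72.2%). It was present for 2 of 11 S-phase members and for 19.5% of all 27305 genes of the promoter table. The E2F words searched on either strand were TTTGGCG, found for 8 of the 40 members, then TTTCGCG, found for 9, and lastly TTTCCCG, found for 6. At least 1 of them was present for 9 of 11 S-phase members (81.8%), for 3 of 18 G2, mitosis and cytokinesis members and for 8.67% of all genes. CCAAT, the word of the factor NF-Y, was present for 28 of the 40 members (70.0%) and 39.7% of all genes. These matches are a description of the windows and not binding sites, and words on opposite strands can overlap. The sequences below show the bases before the RefSeq start of MKI67 and KIF11, from the mitotic group, and of MCM6 and CDC25A, from the S-phase group, because they hold these words. Each is written 5′ to 3′ on the gene's strand, with matches in capitals.

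MKI67, chr10:128126424-128126673, minus strand: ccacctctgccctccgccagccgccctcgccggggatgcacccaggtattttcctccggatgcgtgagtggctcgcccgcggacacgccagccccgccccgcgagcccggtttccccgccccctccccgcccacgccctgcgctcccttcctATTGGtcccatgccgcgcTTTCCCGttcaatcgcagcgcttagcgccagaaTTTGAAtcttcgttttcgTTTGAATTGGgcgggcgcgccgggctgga

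KIF11, chr10:92592880-92593129, plus strand: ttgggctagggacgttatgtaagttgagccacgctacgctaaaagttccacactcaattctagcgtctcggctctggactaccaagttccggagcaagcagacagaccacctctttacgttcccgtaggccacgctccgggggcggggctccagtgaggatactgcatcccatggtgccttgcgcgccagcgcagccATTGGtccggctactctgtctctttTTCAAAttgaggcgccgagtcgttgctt

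MCM6, chr2:135876444-135876693, minus strand: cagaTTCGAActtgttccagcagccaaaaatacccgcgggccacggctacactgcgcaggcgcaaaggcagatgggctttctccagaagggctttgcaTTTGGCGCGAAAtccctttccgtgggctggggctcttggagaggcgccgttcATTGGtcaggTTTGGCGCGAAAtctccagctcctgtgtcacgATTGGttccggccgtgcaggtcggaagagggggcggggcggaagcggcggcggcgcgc

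CDC25A, chr3:48188418-48188667, minus strand: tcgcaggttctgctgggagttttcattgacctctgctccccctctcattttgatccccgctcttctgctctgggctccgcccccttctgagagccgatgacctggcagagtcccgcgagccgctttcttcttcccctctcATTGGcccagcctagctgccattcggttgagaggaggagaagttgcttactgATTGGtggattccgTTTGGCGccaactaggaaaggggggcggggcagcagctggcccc

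Within the 250 bases printed, MKI67 has TTTGAA 2 times, the later one overlapping a CCAAT word on the other strand, and 1 E2F word, TTTCCCG. KIF11 has TTTGAA on the other strand, after a CCAAT word that is also on the other strand. MCM6 has TTTGGCG 2 times, each overlapping TTTCGCG on the other strand, and TTCGAA 1 time, and CDC25A has TTTGGCG 1 time. The counts over members also take in the 50 bases after the start, where KIF11 has TTTGGCG and CDC25A has TTTCGCG. None of these 4 genes was called, and their differences were -0.15, -0.15, -0.25 and 0.02 in the order shown.

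Other genes of the cell cycle, in 4 lists of 162 genes that share no gene with the members, gave 158 tested genes with a median difference of -0.06. Of these, 1 was called, beside 1.66% of all genes tested. The called gene was ORC3 (chr6:87590067-87667453 in GENCODE 29 on GRCh38), a subunit of the origin recognition complex that marks where replication starts. ORC3 was at 17.4, 14.01 and 13.2 TPM with the scrambled ASO and at 3.98, 4.46 and 4.41 TPM in MYH7B ASO replicates 2 to 4, with a wide gap between the groups. It fell from 14.8 ± 2.24 TPM to 4.28 ± 0.27 TPM (SD, n = 3 each), a difference of -1.58 (SE 0.18, limma adjusted p = 0.00643). ORC3 also passed in the authors' deposited table (log2 fold change -1.32, adjusted p-value 9.0e-08). MYH7B ASO replicate 1 held 1.82 TPM, and with it the limma adjusted p was 0.0179.

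In the list of 47 other replication genes, 45 were tested, 3 were lower and 3 higher at an unadjusted limma p under 0.05, a share of 13.3% beside 15.2% of all genes tested. The lower ones were ORC3, PRIM2 and GINS1, and the higher ones were DUT, POLD1 and POLD3. PRIM2, a subunit of the primase, was at 5.08 ± 1.21 and 2.08 ± 0.41 TPM (SD, n = 3 each), a difference of -0.97 (limma adjusted p = 0.114). DUT, which removes dUTP, was at 31.3 ± 3.53 and 46.7 ± 2.64 TPM (SD, n = 3 each), a difference of 0.56 (limma adjusted p = 0.112). The authors' deposited table called 4 of the 46 genes of this list with an adjusted p-value, ORC3 and PRIM2 lower and DUT and POLD1 higher, a share of 8.70% beside 8.71% of all genes.

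The list of 65 other mitosis genes had a median difference of -0.18, close to that of the members, with 46 lower and 19 higher and none called. At an unadjusted limma p under 0.05, 6 were lower and 1, CENPM, was higher, a share of 10.8% beside 15.2% of all genes tested. CIT, which acts in cytokinesis, was the one gene of the 65 that passed in the authors' deposited table, on the lower side, a share of 1.54% beside 8.71% of all genes. The 15 genes of the anaphase-promoting complex, the ubiquitin ligase that ends mitosis, had a median difference of 0.08 and none called by limma. In the authors' deposited table ANAPC7 passed on the higher side (log2 fold change 0.58, adjusted p-value 0.0488), which is 6.67% of the list beside 8.71% of all genes.

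The 35 other G1 regulators gave 33 tested genes, a median difference of 0.06 and none called by limma. Of the 35, 4 passed in the authors' deposited table, CDKN2B lower and CDKN1A, BTG2 and GADD45A higher, a share of 11.4% beside 8.71% of all genes. CDKN2B (p15), an inhibitor of CDK4 and CDK6, was at 9.77, 5.73 and 17.3 TPM and at 2.07, 4.75 and 2.82 TPM, a difference of -1.43 (limma adjusted p = 0.125). CDKN2B passed in the authors' deposited table (log2 fold change -1.07, adjusted p-value 4.0e-04). In MYH7B ASO replicate 1 it was at 23.7 TPM, above all scrambled libraries, without allowance for the lower mitochondrial share of that library. With that library added, the limma adjusted p of CDKN2B was 0.627. CDKN1A (p21), an inhibitor of CDKs, was at 80.0, 60.4 and 119.8 TPM and at 115, 186 and 103 TPM. Its difference of 0.64 did not pass (limma adjusted p = 0.345), whereas CDKN1A passed in the authors' deposited table (log2 fold change 0.58, adjusted p-value 0.0338). The limma adjusted p-values of BTG2 and GADD45A were 0.266 and 0.282.

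Longer cell cycle genes tended to lie lower in the MYH7B ASO libraries, as did longer genes in general. The members were divided at their median annotated span of 19.7 kb in GENCODE 29. The 24 shorter members had a median difference of -0.10 and the 24 longer ones -0.26. Over all genes tested with an annotated span, the medians were 0.08 for 6690 shorter and -0.13 for 9162 longer genes, so the same order was present outside the members. Spearman's rho between span and difference, across genes and as a description, was -0.41 over the 48 members, -0.31 over the 158 other cell cycle genes and -0.31 over all genes. These genes share the same 6 libraries and are not independent replicates. RB1 spans 296 kb, BUB1B 60.1 kb and ORC3 77.4 kb, whereas CDKN1C spans 2.56 kb. PRIM2 spans 332 kb. Other genes went against this order: CDKN2B spans 6.46 kb and had a difference of -1.43, and POLD3 spans 175 kb and had 0.53. The members' medians lay below those of all genes in each part, -0.10 against 0.08 for shorter and -0.26 against -0.13 for longer genes. These gaps between the sets were not tested.

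**Figure D5:**
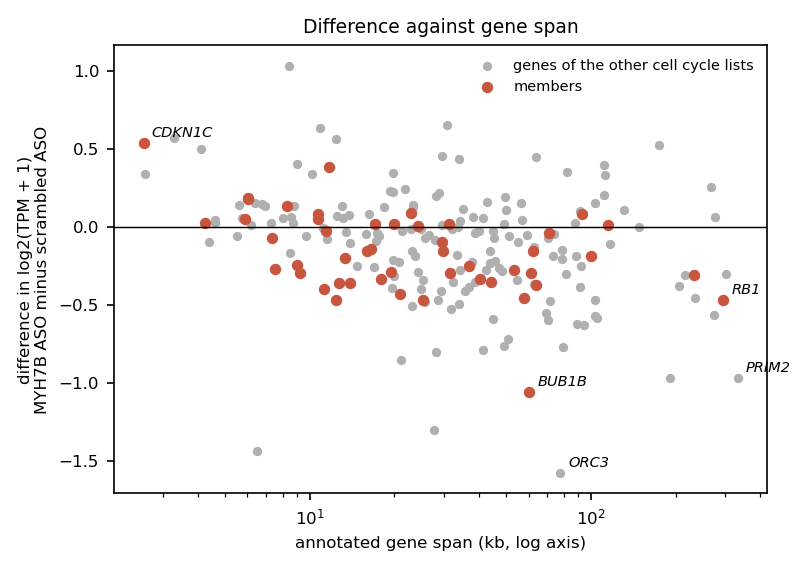
Difference in log2(TPM + 1), MYH7B ASO minus scrambled ASO, against the annotated gene span in kb on a log axis, with reddish points for the 48 members and grey points for 158 genes of the other cell cycle lists. Points of longer genes tend to lie lower, with a rho of -0.41 over the members, and ORC3 is the lowest point.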

How the data were processed

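Poly-A RNA of 7 libraries was sequenced. The authors deposited TPM per gene, with columns that sum to 1000000, and a comparison table that holds, per the file headers, a mean of normalized counts (a signal over libraries), log2 fold changes with standard errors, a test score and the p-value before and after adjustment. The table's name calls it shrunken. DESeq2 and GRCh38.p13 are named in the submitters' processing notes. The quantifier, the annotation release and the libraries behind the comparison table are not given in the sources used here. Depth is unknown, so no counting interval is given, and the number of libraries limits precision.

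The column of MYH7B ASO replicate 1 holds 58721 values in 60234 rows. Its median correlation with the other libraries, across genes, was 0.408 as deposited and 0.955 after assignment in order to the 58721 sorted GENCODE 29 identifiers. It was left out of the comparisons and added back, reordered, as an alternative.

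Genes averaging 1 TPM or more over the 6 libraries were fitted with limma 3.58.1 in R 4.3.3 on log2(TPM + 1), using an intensity trend, no covariates and Benjamini-Hochberg adjusted p-values. The script was tested on simulated data. An exact permutation test of 3 against 3 libraries cannot go below 0.1 and was not used. Alternatives were pseudocounts, filters, scalings, removal of mitochondrially encoded genes, limma settings, replicate blocks and left-out libraries. Named with each library's value were members whose groups did not overlap at an unadjusted p under 0.05, 4 proliferation markers, the D cyclins, CDK4, CDK6, the CDK inhibitors, and called genes of the other lists with at most 5 a list by size. Other genes given by library were chosen after their values were seen. The members and lists were chosen with earlier results of these data known. Tables and plots used Python 3.11.15, pandas 2.3.3 and matplotlib 3.10.9.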

Additional observations from a re-analysis of the deposited data

Results flagged for a closer look

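Of 48 members examined over the 4 MYH7B ASO libraries, with replicate 1 reordered, 3 had a library far from the others. Chance gives about 1 in 20, so this count is near chance, and the share over all genes was not counted. In all 3 the library was replicate 1. CCND1 was at 190.1 TPM in replicate 1 against 91.5, 106 and 89.2 TPM in replicates 2 to 4. CDKN1C was at 159 TPM against 106, 104 and 97.9 TPM. MCM2 was at 25.6 TPM against 10.9, 10.8 and 8.86 TPM. Mitochondrially encoded genes took 17.2% of TPM in replicate 1 and 31.2% to 33.6% in the other 3, and the part of this difference in the 3 values was not tested.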

How the results depend on the processing

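No member was called under any of the 19 alternatives, and the lowest limma adjusted p of a member in each ran from 0.0558, for BUB1B without scrambled ASO replicate 3, to 0.722. The median difference of the members was negative under all 19, from -0.26 without MYH7B ASO replicate 3 to -0.12. Less the median of all genes it was -0.19 to -0.01, and with the block by description number the medians were -0.12 and -0.11. Over all genes, 265 were called, against 40 with no filter on low values, 150 without the intensity trend and 170 with MYH7B ASO replicate 1 added. Leaving out any 1 of the 6 libraries gave 53 (without MYH7B ASO replicate 4) to 149 (without scrambled ASO replicate 2) called genes.

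Of the 6 libraries compared, only some carry a replicate number found in both groups. By title these are replicates 2 and 3. By description number they are scrambled ASO replicates 2 and 3 with MYH7B ASO replicates 3 and 4. A replicate block therefore leaves few libraries to measure the spread. With the block by title number or by description number, 0 genes were called. The title block over 7 libraries, an alternative chosen after seeing the data, also gave 0. These counts cannot tell an effect of pairing from low precision. Unadjusted limma p-values under 0.05 numbered 1718, 1096 and 1773. Deviations of the same-numbered libraries had correlations of 0.08 and 0.11 by title and -0.07 and -0.04 by description. Pairs with different title numbers ran from -0.07 to 0.04, so the same-title pairs were the highest, though low. These values do not settle whether the title numbers pair the samples. No label says that they do, so the main comparison used no pairing. ORC3 was called except under these blocks, where its differences were -1.48, -1.42 and -1.89 (limma adjusted p = 0.331, 0.720 and 0.197).

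Some differences turned sign in alternatives, among them CDKN2C and CCND1, at -0.36 and -0.20 in the main comparison. With the block by description number CDK1 was 0.04, CCND3 -0.02 and CDKN2C 0.03. CCND1 was 0.05 with replicate 1 added and 0.16 with the block added to that. Leaving out 1 library gave -0.60 to 0.02 for CDKN2C, -0.15 to 0.02 for CDKN1B, -0.16 to 0.00 for TOP2A and -0.15 to 0.17 for CCND3, which was also -0.04 without MYH7B ASO replicate 2. The cause was not tested. CDKN2C has no value under the filter of 5 TPM.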
